A study of Homo sapiens with 191 samples.

Results

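The B cell receptor complex and its proximal signaling were examined through 9 genes, chosen by name among the 20090 protein-coding genes of the annotation. These were CD79A and CD79B, CR2 and CD81, SYK and BTK, BLNK, PLCG2 and PIK3CD, and all 9 were found in the annotation. A region of the deposited list was assigned to a gene when its center lay in the gene or within 10 kb on either side, which gave 71 of the 50000 regions. It was called a promoter region of the gene when its center lay within 1 kb of any annotated transcription start site (TSS) of that gene. The list came from ATAC-seq of GM12878, a human lymphoblastoid line whose B cells carry Epstein-Barr virus as the immortalizing agent, and in this assay Tn5 transposase cuts and tags open chromatin. Cells were fixed, permeabilized and transposed without antibody staining, and then sorted singly into plates, with 96 libraries analysed from the first and 95 from the other. All libraries formed 1 group, untreated and of 1 cell line. The authors called the regions on the pooled cells, so each region had 1 score, the -log10 of its q-value, with no value per cell, no replicate, no second group and no known depth per library. No difference between genes could therefore be tested, and the scores below are descriptions of 1 pooled sample.

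The list is a selection of the strongest regions. Scores ran between 16.0 and 4437.6, with a median of 31.6, and took 784 distinct values, so that equal scores are common. The region names number the called regions in genome order up to 513945, and 43851 of these numbers, 8.53%, occur in the list. A gene without a listed region is thus not shown to be closed. The B cell label was checked against lists of marker genes. Of the B cell markers 6 of 6 had a promoter region (strongest scores 54.1 to 1230), against 1 of 5 T cell, 1 of 4 myeloid and 0 of 4 erythroid markers.

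The B cell receptor is a membrane immunoglobulin that carries no signaling domain of its own and relies on the CD79A-CD79B heterodimer. When antigen binds, SRC family kinases phosphorylate the tyrosine motifs in the tails of CD79A and CD79B, and SYK docks there and is activated. SYK then phosphorylates the adaptor BLNK, which brings BTK to its substrate PLCG2, the phospholipase that releases calcium-mobilizing and diacylglycerol messengers. The coreceptor, with CR2 as the receptor for complement fragments and CD81 as a tetraspanin partner, lowers the threshold of this response, and PIK3CD makes the lipid to which BTK binds at the membrane. CR2 is also the receptor by which Epstein-Barr virus enters B cells.

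The sequences that the results turn on are given first, each as the center of a region with 90 bases on either side (GRCh37, the same assembly as hg19), 5′ to 3′ on the strand of the gene. They comprise the regions at the start sites of CD79A and CR2, the pair of promoters of BTK, and the canonical promoter and the strongest intronic region of PLCG2. The canonical TSS is that of the transcript which GENCODE marks as representative. Capitals mark matches to 1 of 13 consensus motifs on either strand, which are spelled out further below. The windows are chr19:42381182-42381362 (CD79A, plus strand), chr1:207627412-207627592 (CR2, plus), chrX:100645836-100646016 (BTK shared, minus), chrX:100641178-100641358 (BTK own, minus), chr16:81812691-81812871 (PLCG2 start, plus) and chr16:81842719-81842899 (PLCG2 intron 2, plus).
CD79A: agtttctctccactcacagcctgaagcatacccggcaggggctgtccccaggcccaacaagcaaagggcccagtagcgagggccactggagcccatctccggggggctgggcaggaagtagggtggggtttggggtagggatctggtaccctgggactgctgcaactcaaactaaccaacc
CR2: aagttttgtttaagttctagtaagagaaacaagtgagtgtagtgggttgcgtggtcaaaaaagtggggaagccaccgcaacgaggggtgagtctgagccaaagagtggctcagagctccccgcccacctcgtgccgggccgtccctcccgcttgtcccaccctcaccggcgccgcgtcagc
BTK shared: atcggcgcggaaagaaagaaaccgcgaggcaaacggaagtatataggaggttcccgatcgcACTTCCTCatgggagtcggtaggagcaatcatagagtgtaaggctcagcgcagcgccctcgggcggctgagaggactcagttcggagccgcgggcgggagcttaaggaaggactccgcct
BTK own: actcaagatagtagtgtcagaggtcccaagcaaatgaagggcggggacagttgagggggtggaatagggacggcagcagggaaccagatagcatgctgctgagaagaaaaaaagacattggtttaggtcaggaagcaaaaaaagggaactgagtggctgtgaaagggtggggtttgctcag
PLCG2 start: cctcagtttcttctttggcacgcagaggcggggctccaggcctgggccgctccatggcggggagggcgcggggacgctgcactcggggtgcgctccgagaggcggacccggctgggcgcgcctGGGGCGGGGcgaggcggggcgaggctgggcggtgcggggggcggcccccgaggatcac
PLCG2 intron 2: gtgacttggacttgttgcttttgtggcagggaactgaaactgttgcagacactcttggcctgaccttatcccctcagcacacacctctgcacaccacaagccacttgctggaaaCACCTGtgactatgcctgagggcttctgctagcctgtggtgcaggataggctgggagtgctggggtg

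Every step of the pathway had a listed promoter region, but most of these regions were weak. All 9 genes had at least 1 promoter region, where 57.2% of all protein-coding genes did, and 7 of 9 had a region within 1 kb of the canonical TSS, where 53.0% of genes did. The exceptions at the canonical TSS were CD81 and PIK3CD. The score of the strongest promoter region had a median of 49.1 over the 9 genes, against 129.6 over the 11499 protein-coding genes with a promoter region, and 7 of the 9 genes lay below 129.6. BTK (567) and PLCG2 (273) lay above it. At or above the median score of the list were the strongest promoter regions of 8 of 9, all but CD81, where 48.9% of all genes had such a region. At least 2 promoter regions were found at 7 of 9, all but CR2 and BLNK, where 24.2% of all genes had as many. The genes also have more annotated start sites than most, with a median of 12 (3 to 25) against 5 for all genes, which gives a region more places to count as a promoter region. Of the 1805 genes with 17 or more start sites, 83.7% had a promoter region, and CD81, BTK, PLCG2 and PIK3CD belong to this class.

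**Figure D1:**
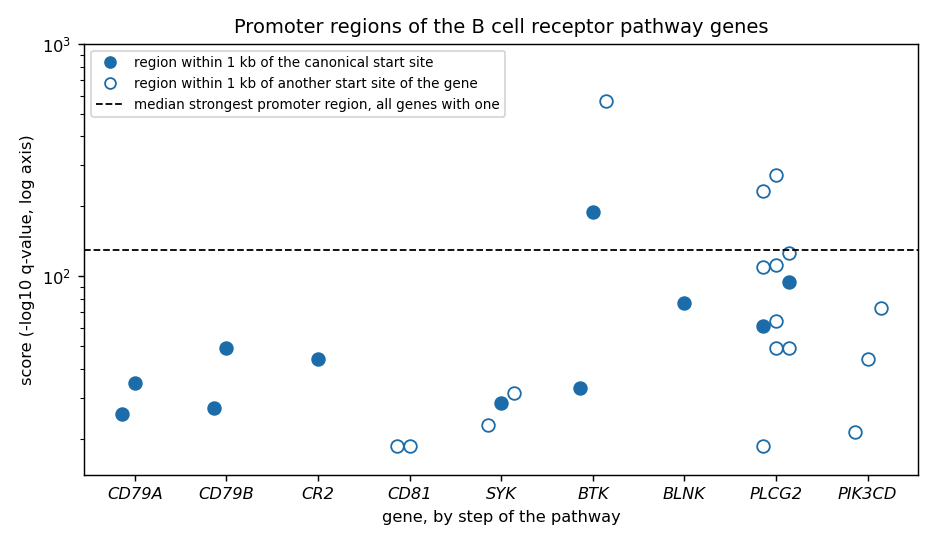
Scores (-log10 q-value, log axis) of all 28 promoter regions of the 9 genes, with filled circles for regions within 1 kb of the canonical start site and open circles for regions at other start sites, set apart sideways for clarity. The dashed line is the median strongest promoter region of the 11499 protein-coding genes with a promoter region (129.6), and points of only BTK and PLCG2 lie above it.

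Both signaling chains of the receptor had a promoter region on either side of the median score of the list (31.6). CD79A (ENSG00000105369, chr19:42381349-42385439, plus strand) had 2 promoter regions. The region centered 77 bp upstream of its canonical TSS scored 25.7, and the other, 811 bp downstream in intron 1 at chr19:42381910-42382410, scored 34.7. A further region at chr19:42379468-42379968, 1631 bp upstream and so outside the promoter window, scored 42.5 and was the strongest of this gene apart from that of a neighbor. Both promoter regions of CD79A were thus weaker than a region just upstream of them. Its flanks also held regions 4084 and 5542 bp upstream (scores 16.0 and 20.0) and the promoter region of ARHGEF1, a neighboring gene, 6980 bp downstream (score 54.1).

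CD79B (ENSG00000007312, chr17:62006098-62009696, minus strand) had 2 regions, both promoter regions. The stronger, at chr17:62009541-62010041, was centered 100 bp upstream of the canonical TSS and scored 49.1. The other lay in intron 2, 997 bp downstream, next to an internal start site and 51 bp from a start site of an overlapping gene without a name, and scored 27.2. Beyond these, the closest region lay 14009 bp away. The printed window of CD79A held no match to any of the 13 motifs.

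The coreceptor genes differed in the place of their regions. CR2 (ENSG00000117322, chr1:207626369-207663240, plus strand) had a single region over the gene and its flanks, at chr1:207627252-207627752, 73 bp from the nearest TSS, with a score of 44.2. The next region in the list lay 27908 bp away. Among listed regions, the gene that encodes the entry receptor of the virus was thus marked at its promoter alone. Between that promoter region and the next listed region downstream, 190763 bp from the canonical TSS, 24 numbers of called regions are missing. CD81 (ENSG00000110651, chr11:2397407-2419032, plus strand) had no region within 1 kb of its canonical TSS. The closest region to that TSS lay 3770 bp downstream in intron 1, at chr11:2402060-2402560, with a score of 59.2, and on the other side the closest lay 217336 bp away. Its promoter regions stood at internal start sites, at chr11:2405645-2406145 in intron 1 and chr11:2414360-2414860 in intron 2, and each scored 18.7, a value that 97.3% of genes with a promoter region reached or passed. The strongest region counted for CD81, with a score of 567, was the promoter region of its downstream neighbor TSSC4, 24 bp from a start site of that gene. This score was shared by 12 regions of the list, among them the strongest of BTK.

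The kinase genes were far apart in promoter strength. SYK (ENSG00000165025, chr9:93564069-93660831, plus strand) had 3 promoter regions at 2 separate start sites. The region 240 bp upstream of the canonical TSS, at chr9:93563611-93564111, scored 28.6. At the internal start site in intron 1 a region at chr9:93589417-93589917 scored 31.6 and its neighbor, at chr9:93590263-93590763, scored 22.8. The strongest region of SYK was not a promoter region. It lay in the same intron at chr9:93593282-93593782, 3762 bp from the nearest start site, and scored 49.1. All 6 regions inside SYK fell in intron 1, which is 42.0 kb long, and the rest of the gene held none.

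BTK (ENSG00000010671, chrX:100604326-100645784, minus strand) had the strongest promoter region of the 9 genes, at a promoter shared with a neighboring gene. The region with a score of 567, at chrX:100645676-100646176, lay just outside the outermost start site of BTK and 48 bp from a start site of RPL36A, a ribosomal protein gene that runs in the opposite direction. Its canonical TSS had a region of its own, at chrX:100641018-100641518 and 89 bp upstream, with a score of 188.7. A weaker region, 603 bp downstream of this TSS in intron 1, scored 33.1 and belonged to the same called region. Of the genes with a promoter region, 14.3% had a strongest score of 567 or more. Without the shared promoter the value for BTK is 188.7, which still exceeds the median over all genes. The other 3 regions counted for BTK lay at promoters of neighbors, TIMM8A (scores 388 and 17.3) and RPL36A (16.0), so none lay away from every promoter.

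BLNK (ENSG00000095585, chr10:97948927-98031344, minus strand), the adaptor, had 1 promoter region, at chr10:98031002-98031502, centered 74 bp downstream of the canonical TSS in exon 1, with a score of 76.7. It was the strongest of the 8 regions of this gene. The other 7 lay away from all promoters, which was the highest share of such regions among the 9 genes. Upstream of the gene, 2 summits of 1 called region scored 30.1 each, 1451 and 2344 bp from the canonical TSS. In intron 2 a region at chr10:98004079-98004579, 26997 bp downstream, scored 71.3, close to the promoter region, while introns 1 and 4 held 4 regions with scores of 17.3 to 25.7.

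PLCG2 (ENSG00000197943, chr16:81812884-81996290, plus strand) held 32 regions, 45.1% of the 71. The canonical promoter held 2 summits of 1 called region, just upstream of the TSS (score 95.0) and 587 bp downstream (60.9). The other 9 promoter regions of PLCG2 lay at internal start sites in intron 2. They scored between 18.7 and 273, the highest at chr16:81832199-81832699. Intron 2, which is 68.3 kb long, held 24 of the 32 regions. The strongest of them, at chr16:81842559-81843059, scored 503, lay 29913 bp downstream of the canonical TSS and 1813 bp from the nearest start site, and so was stronger than any promoter region of the gene.

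Most regions of PLCG2 were grouped. The called regions that began 17578, 29009 and 36358 bp downstream held 4, 5 and 5 summits over 2476, 3222 and 3474 bp, and in all the 32 regions came from 18 called regions. Between the canonical TSS and 70 kb downstream every bin of 10 kb held at least 2 regions, with 8 between 30 and 40 kb. Farther downstream the gene held 3 regions, with scores of 17.3, 17.3 and 22.8, the last in exon 14, and no region beyond 130 kb. The downstream exons, which encode most of the enzyme, were thus nearly without listed regions.

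PIK3CD (ENSG00000171608, chr1:9689947-9789172, plus strand), the catalytic subunit of phosphoinositide 3-kinase delta, had no region at its canonical TSS. The closest lay 4847 bp downstream, in intron 1, and scored 21.4. Its promoter regions were at the upstream start site, well before the canonical TSS. There the region at chr1:9689563-9690063 lay 21976 bp upstream and scored 73.1, and another summit of the same called region, at chr1:9689010-9689510, scored 44.2. A further promoter region, at an internal start site 35662 bp downstream of the canonical TSS, scored 21.4. The upstream start site of PIK3CD thus held the stronger regions.

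**Figure D2:**
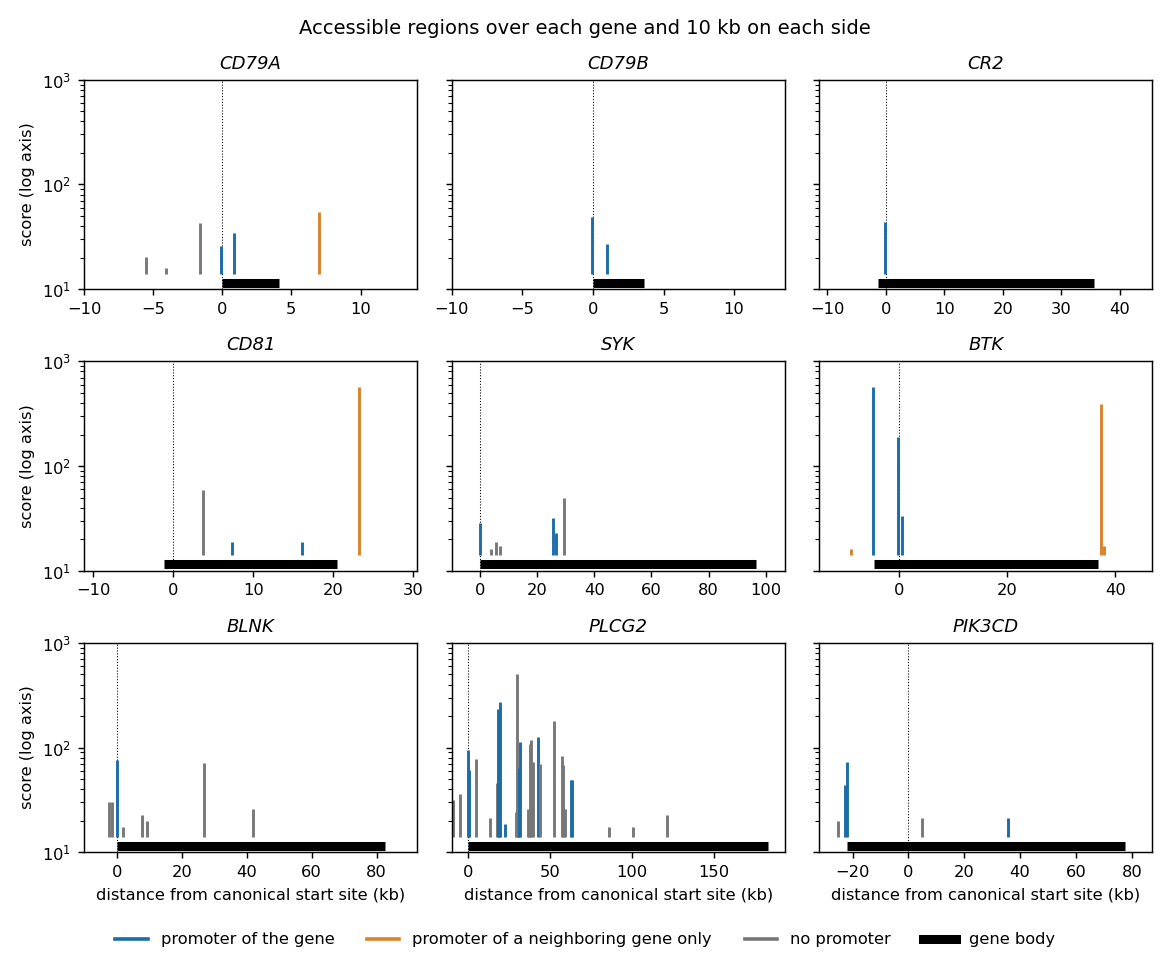
Accessible regions over each gene with its flanks of 10 kb, drawn as lines whose height is the score (-log10 q-value, log axis) at their distance (kb) from the canonical start site, in the direction of transcription. PLCG2 carries 24 regions in intron 2, CR2 a single region, and the highest line at CD81 (567) belongs to a neighboring gene.

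In number of regions the pathway stood above most genes, with a wide spread among its members. A gene with its flanks of 10 kb held a median of 6 regions, against 2 over all protein-coding genes, where 74.7% had at least 1. Per 100 kb the median was 8.47 for the 9 genes and 2.64 for all. Genes were then set beside those of like span, meaning the genes in the same one of 10 equally filled bins of span. By this measure 8 of 9 lay above the median of their class, 6 above its 75th percentile, and CD79A and PLCG2 above its 95th. PLCG2 was matched or exceeded by 17 of the 2009 genes of its class, itself included, and CD79A by 83 of 2008. CR2, with 1 region against a median of 2, was the only gene below. Several counts came mostly from the flanks: without them CD79A held 1 region, BTK 2 and PIK3CD 2. Without PLCG2 the other 8 genes held 39 regions with a median of 5.5.

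**Figure D3:**
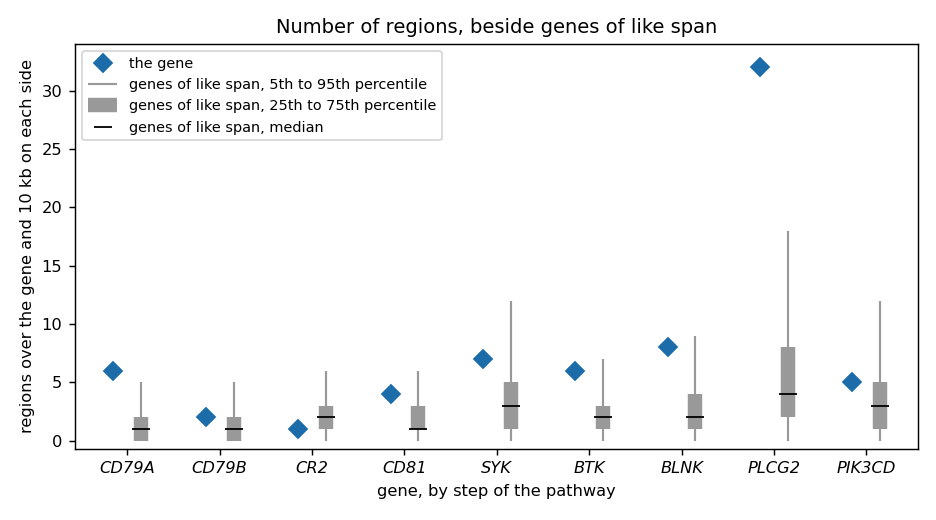
Number of regions over each gene with its flanks of 10 kb (diamonds), beside genes of like span (black dash, median; thick bar, 25th to 75th percentile; thin line, 5th to 95th percentile). PLCG2 (32 regions) and CD79A (6) lie above the 95th percentile of their class, and CR2 (1) below the median.

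Of the 71 regions, 28 were promoter regions of the 9 genes, 5 lay only at promoters of neighboring genes and 38 lay at no promoter. Those at no promoter numbered 21 at PLCG2, 7 at BLNK, 4 at SYK, 3 at CD79A, 2 at PIK3CD, 1 at CD81 and 0 at CD79B, CR2 and BTK. Introns of the canonical transcripts held 47 regions, 44 of them in intron 1 or 2. The 28 promoter regions had a median score of 49.1 (18.7 to 567) and the other 43 a median of 25.7 (16.0 to 567), beside 64.3 at all 16363 promoter regions of the list and 25.7 at the other regions. The 43 include the 5 at promoters of neighboring genes, while the other regions of the list lie at no promoter, so these medians are not of like sets. Promoter regions of the pathway had a lower median score than those of the list as a whole.

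The windows left few close cases. The promoter regions farthest from a start site were those of PLCG2 at 843 bp (score 234) and CD79A at 785 bp (34.7), and the closest regions left out were at 1100 bp for PLCG2 (69.6), 1380 bp for CD81 (59.2) and 1433 bp for BLNK (30.1). At the flank, the farthest region counted lay 9048 bp from PLCG2 (31.6), and the closest not counted lay 14009 bp from CD79B (24.3).

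Promoter regions of the pathway were poor in CpG dinucleotides. Of the 28, 20 held fewer than 20 CpG in their 501 bp (71.4%), against 24.5% of all promoter regions, with a median of 10 against 36. Because 9 of the 28 are internal regions of PLCG2, the promoter regions at the canonical TSSs are given singly. The region at the start of BTK held 4 CpG, that of CD79A 5, that of BLNK 6, that of CD79B 22, that of CR2 27, that of SYK 44 and that of PLCG2 61. The promoter that BTK shares with RPL36A held 36, so the 2 promoters of BTK lay in sequence of different kinds, as the printed windows show. In the whole list, promoter regions with fewer than 20 CpG had a median score of 30.1 and the others 91.3. In the pathway these medians were 46.6 (20 regions) and 55.0 (8 regions).

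**Figure D4:**
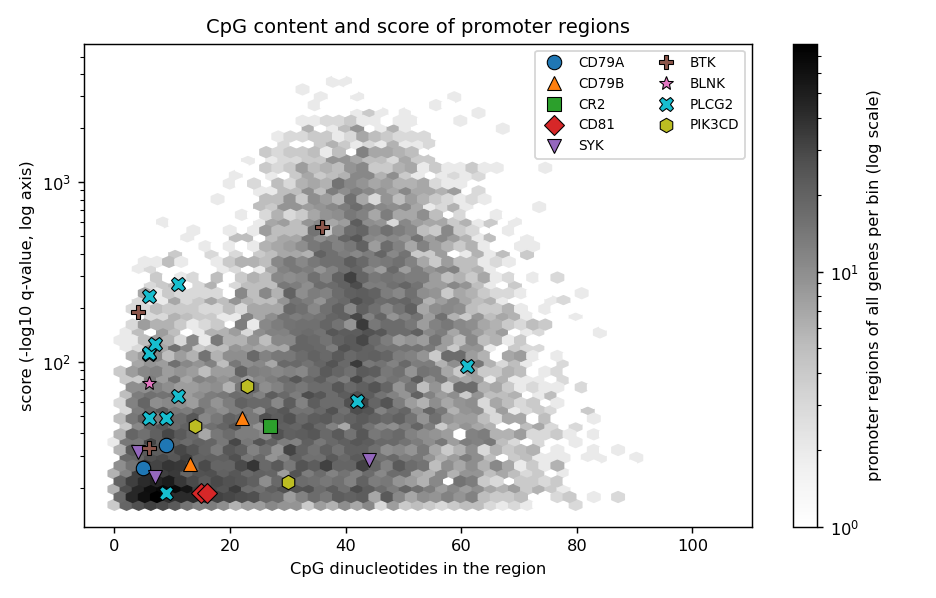
Score (-log10 q-value, log axis) against the number of CpG dinucleotides in the 28 promoter regions of the 9 genes (colored symbols), over all 16363 promoter regions of the list (gray bins, darker for more regions). Of the 28 symbols, 20 lie below 20 CpG, where the own promoter region of BTK (4 CpG, score 188.7) and 2 regions of PLCG2 (scores 234 and 273) stand highest.

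Matches to 13 motifs were counted in the 71 regions and in the whole list. The consensus motifs searched on either strand over 501 bp were CCCNNGGGA for EBF1, ATTTGCAT for the octamer of POU2F2, GAGGAAGT for PU.1/SPIB, CCGGAAGT for ETS, CAGGTG for E2A, TGTGGTT for RUNX, TGANTCA for AP-1, GGGGCGGGG for SP/KLF, CCAATCA for NFY, TGACGTCA for CRE, and the consensus motifs of NF-kB, IRF and CTCF. The PU.1/SPIB and ETS motifs end in the same 6 letters. PU.1/SPIB matched in 9 of the 71 regions (12.7%), 5 of them at PLCG2, against 5.14% of the 49997 regions of the list without N. EBF1 matched in 11 (15.5%, against 12.7%) and E2A in 35 (49.3%, against 42.3%), in every gene but CD79B. The octamer matched in 3 regions (4.23%, against 3.30%), 2 of them at PLCG2. NF-kB matched in 3 (4.23%, against 4.63%), all promoter regions, of SYK, PLCG2 and PIK3CD. AP-1 was found in 9 (12.7%, against 16.9%). SP/KLF, a motif of CpG-rich promoters, matched in 5 of the 28 promoter regions, where 24.9% of all promoter regions had it. Neighboring regions of 1 gene are not independent, and a match does not show that a factor binds.

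These genes were set beside a list of their paralogs and functional counterparts. Of 22 paralogs and functional counterparts, 12 had a promoter region (54.5%, where 57.2% of all genes did). The CD3 chains, which serve the T cell receptor as CD79A and CD79B serve the B cell receptor, had none at CD3D, CD3E and CD3G, and CD247 had regions at other start sites only (strongest 44.2), beside 34.7 at CD79A and 49.1 at CD79B. ZAP70, the T cell counterpart of SYK, had none and its closest region lay 4993 bp away. CR1, next to CR2 in the genome, had no promoter region, and the region closest to any of its start sites, 41990 bp away, was that of the CR2 promoter.

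Among the TEC family kinases, BTK had 567 at the promoter shared with RPL36A and 188.7 at its canonical TSS. TEC had 554 at its canonical TSS, while TXK and BMX had no promoter region. Of the adaptors related to BLNK (76.7), LCP2 had a strongest promoter region of 71.3 and CLNK of 52.4. PLCG1, the broadly expressed relative of PLCG2 (273; 95.0 at the canonical TSS), had 50.7 and 8 regions in all, against 32. The tetraspanins ranged widely beside CD81 (18.7 and 4 regions), with CD82 at 1060 and 23 regions, CD63 at 133.5, CD37 at 39.4, CD53 at 18.7, and none at CD9 and CD151.

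The rest of the pathway was also mostly open at its promoters. Of 38 further genes, 32 had a promoter region (84.2%, where 57.2% of all genes did), with a median strongest score of 165.8 and a median of 6 regions. The 57.2% is not matched for the number of start sites, which ran from 2 (ITPR3) to 53 (ITPR1) in these genes. Of all genes with 5 start sites 60.5% had a promoter region, and of those with 17 or more 83.7% did. Among SRC family kinases and their regulators 6 of 7 had a promoter region, led by FYN (726), BLK (508) and LYN (435), the last of which is the main kinase of the CD79 tails, and PTPRC had none. All 10 adaptors and exchange factors had a promoter region, led by DAPP1 (987), NCK1 (931) and CBLB (629), an E3 ubiquitin ligase. Of the calcium and diacylglycerol branch downstream of PLCG2, 7 of 8 had a promoter region, led by BCL10 (2550), ITPR1, the calcium release channel (1207), and MALT1 (287), and ITPR3 had none. Regulatory subunits of phosphoinositide 3-kinase, with PDPK1 and AKT1, had a promoter region in 4 of 5 cases, led by PIK3R1 (385), PIK3R3 (309) and PIK3R2 (172.01), and PDPK1 had none. Inhibitory receptors and phosphatases had a promoter region in 4 of 6, with PTPN6, the phosphatase SHP-1, at 244 and CD72 at 147.5, and with none at CD22 and FCGR2B. IFITM1, a partner of the coreceptor, had 22.8.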

How the data were processed

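ATAC-seq was performed by the authors on single GM12878 cells, in 1 group of libraries. Per the study's methods, read pairs were adapter-trimmed, aligned to hg19 and cleared of mitochondrial, duplicate and low-quality reads. The authors then called summits on all cells together and retained the 50000 with the lowest q-values, widened to a fixed size. Tools named in the submitters' processing notes are Bowtie2 2.1.0, Picard 1.79 and MACS2 (version not given in the sources used here). Each deposited score, a -log10 q-value made by the authors, was used as given to rank and describe regions. Depth per library is unknown, and cells with more fragments weigh more in the pooled calls.

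Coordinates are hg19, 1-based, as written 501 bp wide. Genes and TSSs were those of GENCODE 44 mapped to GRCh37, by all transcripts of protein-coding genes on chromosomes 1 to 22 and X. Regions were assigned by their centers. Shares and medians over all genes or regions stand as background, and no test was run. Summits of 1 called region were counted separately. Spans were classed into 10 bins of equal numbers of genes. Motifs were searched in GRCh37, with 3 regions holding N left out of the background.

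The genes named were all 9 and their paralogs and functional counterparts. In each role of the pathway they were the 3 with the strongest promoter region and those without one. Some genes that this rule names are not reported here. Members and lists were chosen with earlier results of these data known. Counting and motif search were tested on simulated data. Alternatives changed the promoter window, the TSS set, the flank, the part of the list, the overlap rule and the width searched for motifs. Python 3.11.15, numpy 2.4.6 and matplotlib 3.10.9 were used.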

Additional observations from a re-analysis of the deposited data

How the results depend on the processing

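The number of genes with a promoter region was 9 with a window of 500 bp or 2.5 kb, with any overlap of region and window, and with start sites of protein-coding transcripts only. It was 8 with only the regions at or above the median score, which leaves out CD81, and 7 with the outermost or the canonical TSS alone. Some settings were chosen after seeing the data. These were start sites of protein-coding transcripts or the canonical TSS, those for the paralogs and counterparts, and the count without PLCG2. For the pathway genes, the outermost TSS and any overlap were also chosen after seeing the data. The count of 71 regions was 51 without a flank, 93 with 50 kb, 53 for distinct called regions, 39 with the regions at or above the median score and 39 without PLCG2. The median of 6 regions per gene fell to 2 without a flank (1 over all protein-coding genes) and to 2 with the regions at or above the median score (1 over all genes). It was 4 for distinct called regions (1 over all genes) and 7 with a flank of 50 kb (4 over all genes). Of the pathway genes, 27 to 33 of 38 had a promoter region over the alternatives, and of the counterparts 9 to 13 of 22. Over the same alternatives 9828 to 12106 of all 20090 protein-coding genes had one, against 11499 in the main setting. The strongest promoter region of CD81 scored 59.2 with a window of 2.5 kb, that of PLCG2 503, and that of CD79A 42.5, or 25.7 with 500 bp. With the canonical TSS alone BTK had 188.7, PLCG2 95.0 and SYK 28.6. Any of the motifs matched in 56 of the 71 regions, and in 39 over their central 200 bp. In this central part PU.1/SPIB matched in 3 and EBF1 in 5. No share of the whole list stands beside these counts, so they are not read as traits of the pathway. Over 501 bp, E2A alone matched in 42.3% of the list. No alternative leaves out a library, since the list is 1 pooled value per region. How its unknown depth bears on which weak regions were listed was not tested.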

Other observations

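The numbers of the called regions are not complete in the list, and whether the missing ones were filtered out or scored below the listed regions is not known. Between the lowest and the highest number at PLCG2 there are 90 numbers, of which 18 occur in the list and 72 do not. At BLNK 7 of 28 numbers occur, at CD81 4 of 21, at PIK3CD 4 of 21, at SYK 7 of 16, at CD79A 6 of 14, at BTK 4 of 12 and at CD79B 2 of 2. Between the listed regions on either side of the canonical TSS of CD81, which has no listed region within 1 kb, 31 numbers are missing over an interval that reaches 217336 bp upstream and 3770 bp downstream. At the canonical TSS of PIK3CD 10 numbers are missing over an interval of 21976 bp upstream and 4847 bp downstream. Where in these intervals the missing calls lie, and which scores they had, was not analysed here.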
